A study of Homo sapiens with 6 samples.

Results

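The genes described here are 7 brakes on apoptosis, namely MCL1, BCL2L1, BCL2, CFLAR, XIAP, BIRC2 and BIRC3. They were followed through every probe set whose platform annotation named one of them and no other gene. Probe sets were listed for 6 of the 7 genes, 36 of the 54675 on the array, while no probe set was listed under BIRC3, which was not analysed here. CFLAR had 14 probe sets, XIAP 7, MCL1 6, BCL2L1 4, BCL2 4 and BIRC2 1. The genes were chosen by name and not by a cut on their values, though with earlier results of these data known.

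Apoptosis is set off along a mitochondrial and a death receptor route, and the genes act on both. MCL1, BCL2 and BCL2L1, which encodes BCL-XL, protect the mitochondrial outer membrane by binding pore-forming and BH3-only relatives. CFLAR encodes c-FLIP, a relative of caspase-8 without protease activity that competes for the death receptor complex. XIAP binds and inhibits active caspases, whereas BIRC2 and BIRC3 encode cIAP1 and cIAP2, ubiquitin ligases of the TNF receptor complex. MCL1 and c-FLIP turn over quickly, and BCL-XL is a major survival protein of colorectal tumour cells.

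The material was HT-29, an established human colorectal adenocarcinoma line, grown as tumours in both femoral regions of Balb/c (nu/nu) mice aged 6 to 8 weeks at injection. These mice lack a thymus, so the tumours grew without most T cells. The control pool held RNA of control tumours, whose animals the labels do not describe further. The treated pool held tumours heated by modulated electro-hyperthermia, an electromagnetic treatment of 30 min on day 18, and sampled 4 h later. The opposite-side pool held the unheated tumours of those treated animals. Within a group the RNA was pooled and measured on 2 technical arrays, and how many animals a pool holds is not given in the sources used here. Every SD below is therefore that of 2 arrays of the same RNA. The spread between animals was not measured, so conditions were compared by size alone, without a test.

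Values are GCRMA expression values on the log2 scale, with a lowest value of 2.37 in the table. A probe set was called detected where a pool mean reached 5, and 22.3% to 22.8% of all probe sets on an array lay at or above 5. A difference between pools was called where it met a size rule with 3 conditions. The means lay at least 1 apart (2-fold), each of the 4 pairs of arrays pointed the same way, and the higher pool read 5 or more on both arrays. Arrays of the same pool differed by a median of 0.05 to 0.059. Of 13 markers of colon epithelium 11 were detected, among them EPCAM and the keratins KRT8 and KRT18, while the transcription factor genes CDX1 and CDX2 stayed near the lowest value. Of the host cell markers, the leukocyte genes PTPRC, CD14, CD3E and MS4A1, the endothelial genes VWF, CDH5 and KDR and the fibroblast gene DCN also stayed within 0.2 of it. Of the other endothelial markers FLT1 was detected and PECAM1 was not. FLT1 read 5.10 and 5.16 on the control, 5.09 and 5.09 on the treated and 4.95 and 4.94 on the opposite-side arrays. The matrix, muscle and leukocyte genes that were detected are given further on, beside the member differences. In such bulk RNA, fewer cells of a type and less RNA per cell cannot be told apart. The probe sets are annotated to human genes while the host is a mouse, and how far mouse transcripts read on them was not tested. Marker values, low or high, therefore set no amount of host cells.

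The stretches upstream of the listed starts are shown first, because they give the DNA context of genes measured only as transcripts here. RefSeq promoter windows (GRCh38.p14) were matched for 6 of the 7 members, all except MCL1, as 13 windows, and the 250 bases before each start were searched. The motifs were GAANNTTC and TTCNNGAA, the pairings of heat shock element units, TGACGTCA, the cAMP response element, and the NF-kB consensus, each on both strands. The first window of each detected gene is printed 5′ to 3′ on its coding strand, with matches in capitals. They are CFLAR at chr2:201118466-201118715 (plus strand), BCL2L1 at chr20:31723964-31724213 (minus strand), XIAP at chrX:123859458-123859707 (plus strand) and BIRC2 at chr11:102346964-102347213 (plus strand).
CFLAR: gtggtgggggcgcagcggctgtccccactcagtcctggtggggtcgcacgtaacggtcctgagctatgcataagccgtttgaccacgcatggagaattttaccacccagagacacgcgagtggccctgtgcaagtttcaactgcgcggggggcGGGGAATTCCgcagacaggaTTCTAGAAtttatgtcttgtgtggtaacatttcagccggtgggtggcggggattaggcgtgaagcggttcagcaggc
BCL2L1: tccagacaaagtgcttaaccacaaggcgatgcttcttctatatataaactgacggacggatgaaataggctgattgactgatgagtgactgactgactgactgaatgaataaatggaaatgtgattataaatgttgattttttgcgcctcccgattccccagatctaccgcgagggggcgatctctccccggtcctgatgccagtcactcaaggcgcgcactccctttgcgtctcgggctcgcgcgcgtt
XIAP: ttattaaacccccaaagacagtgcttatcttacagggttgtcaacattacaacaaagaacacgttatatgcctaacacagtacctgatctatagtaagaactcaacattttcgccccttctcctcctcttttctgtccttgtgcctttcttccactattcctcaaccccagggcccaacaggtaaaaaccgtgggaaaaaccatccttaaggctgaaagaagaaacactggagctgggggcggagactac
BIRC2: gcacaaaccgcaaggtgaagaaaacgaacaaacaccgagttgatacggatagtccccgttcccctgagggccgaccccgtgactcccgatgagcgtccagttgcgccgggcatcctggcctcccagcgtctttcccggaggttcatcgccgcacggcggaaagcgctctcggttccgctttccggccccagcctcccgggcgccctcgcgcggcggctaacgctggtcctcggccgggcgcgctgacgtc

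The first CFLAR window held an NF-kB match, GGGGAATTCC, beginning 97 bases before the start, and a heat shock pair, TTCTAGAA, beginning 77 bases before it, and the matches did not overlap. Of 35116 windows of that length in the RefSeq table, 9.96% held the NF-kB consensus, 6.62% held TTCNNGAA, 5.78% held GAANNTTC and 1.65% held TGACGTCA. The BIRC3 window held 2 NF-kB matches. The other 3 CFLAR windows held 1 match in all, GAAGTTTC, in the window of the third start. None of the 4 motifs matched in the printed windows of BCL2L1, XIAP and BIRC2. The second BIRC2 window, which begins inside the first, held TGACGTCA beginning 167 bases before its own start. These matches describe letters only, since no binding was measured.

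In the treated pool MCL1 transcripts were higher than in the control pool on both of its detected probe sets, and the opposite-side pool lay between them. Of these, 200797_s_at stood at 9.72 and 9.78 on the control arrays, 10.34 and 10.35 on the treated arrays and 10.06 and 10.11 on the opposite-side arrays. The 3 pools did not overlap on it. Treated minus control was 0.60 (1.52-fold), treated minus opposite 0.26 and opposite minus control 0.34, none of which reached the minimum difference of 1. Absolute differences larger than 0.60 were seen for 4.91% of the 12782 probe sets detected in the treated or control pool.

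The second detected MCL1 probe set, 200798_x_at, was the only member probe set called different, and it rose from control to treated tumours. It is annotated with the RefSeq mRNA of the long, anti-apoptotic MCL1 form, though its probes need not be specific to that form. Its values were 4.44 and 4.74 on the control arrays, 5.88 and 5.82 on the treated arrays and 5.51 and 5.47 on the opposite-side arrays. Both control arrays lay below 5, so the fold of the treated pool (5.85 ± 0.038 against 4.59 ± 0.215, SD, 2 arrays each) is at least 1.80, taken against 5. The difference of means as measured was 1.26 against the control pool, 0.36 against the opposite-side pool, and 0.89 for opposite minus control. With every value below 5 set to 5 the treated minus control difference was 0.85 and the call was lost. Without the second control array the opposite minus control difference was 1.05, past the minimum, and without the first it was 0.74.

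The 4 other MCL1 probe sets gave little to compare. They lay between 2.37 and 3.96 on every array, and their differences ran from -0.10 to 0.24. The detected pair shared its direction in each comparison. In treated minus opposite, where both pools read above 5 on both probe sets, the pair differed by 0.10, and in the comparisons with control the values of 200798_x_at below 5 set no exact size. The suffix _s_at marks probe sets whose probes fit several transcripts, and _x_at marks those with probes that also fit other sequences. Whether other transcripts add to 200798_x_at was not tested.

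**Figure D1:**
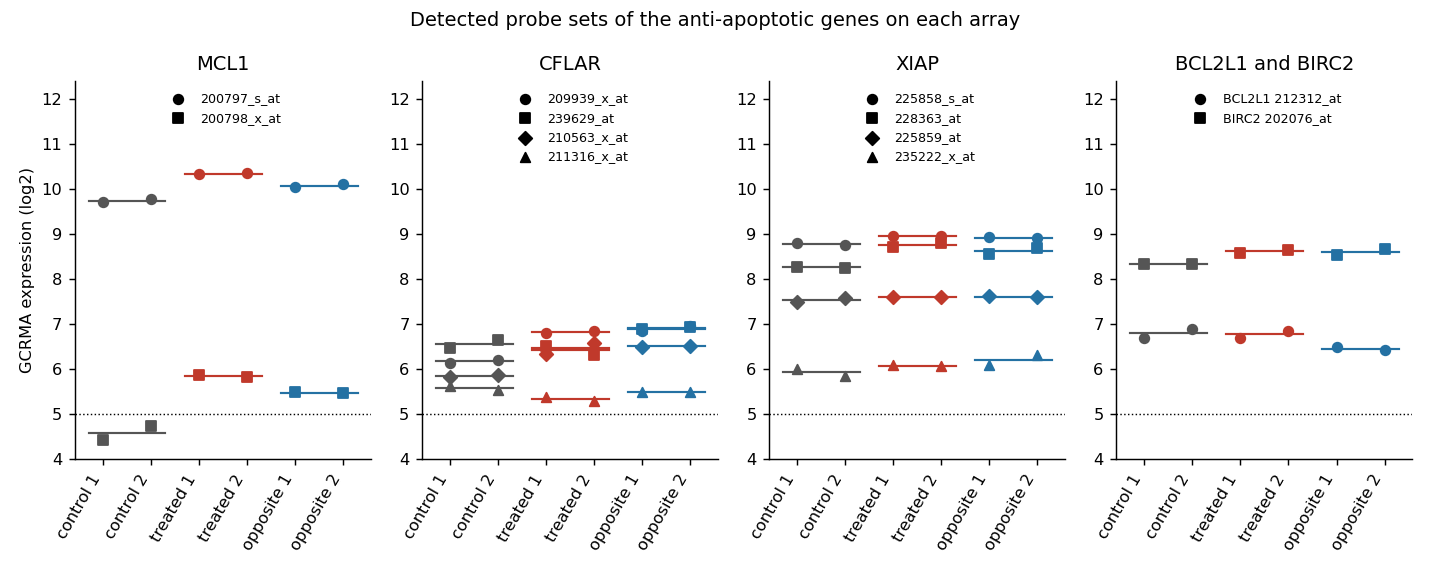
GCRMA expression (log2) of the 12 detected probe sets on each of the 6 arrays, with a marker shape per probe set, a colour per pool, bars at the pool means and a dotted line at 5. The MCL1 probe sets are highest on the treated arrays, 2 CFLAR probe sets are higher on treated and opposite-side than on control arrays, and the pool means of the XIAP and BIRC2 probe sets lie within 0.50 of each other.

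BCL2L1 was detected on 1 of its 4 probe sets, and there the opposite-side pool was lowest. That probe set, 212312_at, stood at 6.69 and 6.90 on the control arrays, 6.70 and 6.85 on the treated arrays and 6.50 and 6.43 on the opposite-side arrays. Control and treated arrays overlapped, with a difference of -0.02 that turned to 0.06 without the first treated array and to 0.09 without the second control array. Opposite minus control was -0.34 and treated minus opposite 0.32, without overlap but below the minimum difference. The probe set annotated with the mRNA of the short form BCL-XS, 206665_s_at, lay at 2.68 in the control pool and 2.50 in the other two, 215037_s_at stood at the lowest value on every array and 231228_at ran from 3.33 to 3.56.

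BCL2, the founding member of the family, was not detected in any pool. Its 4 probe sets ran from 2.37 to 3.01 over all arrays, and 3 of them are annotated with RefSeq mRNAs of the alpha or beta form. The largest difference among them was -0.19, for 207004_at in treated minus opposite. A value so close to the lowest of the table sets no level for the transcript.

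CFLAR gave the clearest disagreement among probe sets of the same gene. A pair of its 4 detected probe sets read more in both pools from treated animals than in the control pool. On 209939_x_at the control arrays read 6.15 and 6.21, the treated arrays 6.81 and 6.85 and the opposite-side arrays 6.85 and 6.96. Treated minus control was 0.66 (1.58-fold) and opposite minus control 0.73 (1.66-fold), while treated and opposite-side arrays met at 6.85, with a difference of -0.07. Larger absolute differences were seen for 3.75% of detected probe sets in treated minus control and 1.98% in opposite minus control. On 210563_x_at the control arrays read 5.84 and 5.88, the treated arrays 6.34 and 6.59 and the opposite-side arrays 6.50 and 6.53. Its differences were 0.60 for treated minus control, 0.65 for opposite minus control and -0.05 for treated minus opposite, the last turning to 0.08 without the first treated array.

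The other pair of CFLAR probe sets had another order of pools. On 239629_at the control arrays read 6.47 and 6.64, the treated arrays 6.51 and 6.33 and the opposite-side arrays 6.90 and 6.94. The opposite-side pool was thus highest, by 0.36 over control and by 0.50 (1.41-fold) over treated, while control and treated overlapped (-0.13). On 211316_x_at the control arrays were highest at 5.63 and 5.55, the opposite-side arrays read 5.50 and 5.51 and the treated arrays 5.38 and 5.30, and opposite minus control was -0.09 (0.15 after scaling to the spike-in controls). Treated minus control was -0.25 there and treated minus opposite -0.17, so that treated minus control spanned 0.91 between the lowest and the highest CFLAR probe set. None of these CFLAR differences reached the minimum of 1.

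The remaining 10 CFLAR probe sets were not detected, with values from 2.37 to 4.69 and differences from -0.33 to 0.32. They include 208485_x_at, annotated with the RefSeq mRNA of the long c-FLIP form, which lay at 2.43 in the control, 2.55 in the treated and 2.46 in the opposite-side pool. Of the 14 CFLAR probe sets 9 are of the _x_at kind, among them 3 of the 4 detected. The probe set of the antisense gene CFLAR-AS1 lay at 2.47 to 2.55 on all arrays.

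XIAP was detected on 4 of its 7 probe sets, and all 4 were higher in the treated and opposite-side pools than in the control pool, by less than the minimum. The difference was widest on 228363_at, at 8.28 and 8.26 on the control arrays, 8.72 and 8.81 on the treated arrays and 8.57 and 8.70 on the opposite-side arrays. Treated minus control was 0.50 (1.41-fold) and opposite minus control 0.36. On 225858_s_at the arrays read 8.81 and 8.77, then 8.96 and 8.96, then 8.94 and 8.91 in the same order, with differences of 0.17 and 0.14 from control. On 225859_at these differences were 0.08 and 0.08, and on 235222_x_at 0.15 and 0.28. Single arrays weigh on these small values. Without the first control array those of 225859_at were 0.04 and 0.04, and 235222_x_at gave 0.07 in treated minus control without the second control array and 0.17 in opposite minus control without the second opposite-side array. Treated minus opposite lay between -0.13 and 0.13 on the 4 probe sets, with both signs. The other 3 probe sets, 1 of them annotated with a RefSeq mRNA of XIAP, stayed below 5, from 2.84 to 4.86, with differences from -0.19 to 0.16.

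BIRC2 was measured by a single probe set, 202076_at. It stood at 8.33 and 8.33 on the control arrays, 8.59 and 8.65 on the treated arrays and 8.54 and 8.68 on the opposite-side arrays. Both pools from treated animals lay above control without overlap, by 0.29 (1.22-fold) and 0.27 (1.21-fold). Treated and opposite-side arrays overlapped, and their difference of 0.01 was -0.0035 after quantile normalization and -0.21 after scaling to the spike-in controls.

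**Figure D2:**
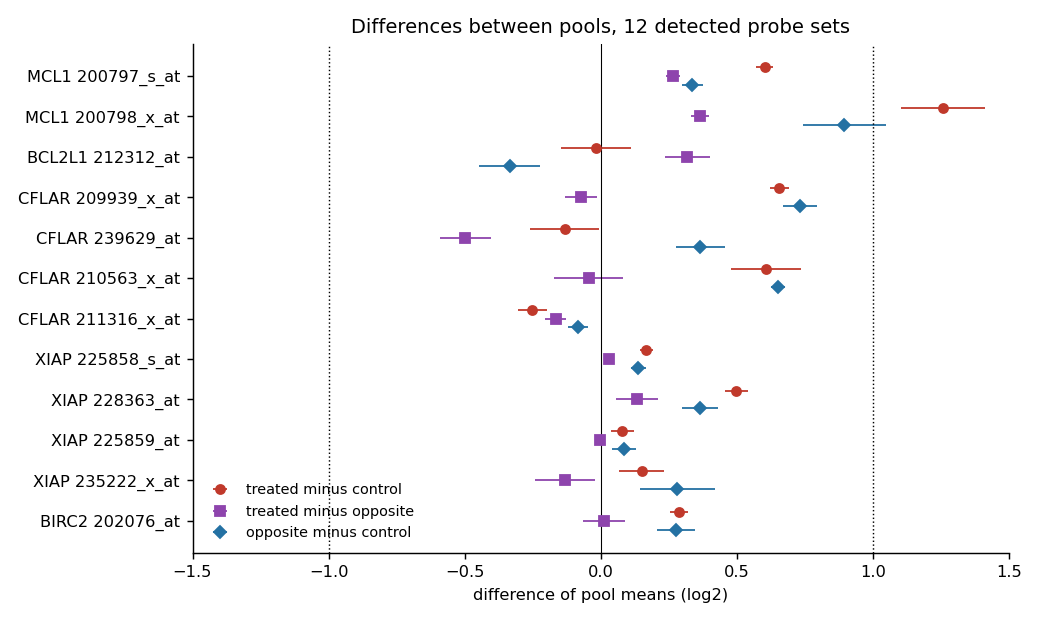
Differences of pool means (log2) for the 12 detected probe sets in each of the 3 comparisons, with bars of 1 pooled SD of the technical arrays and dotted lines at the minimum difference of 1. Only 200798_x_at of MCL1 passes a dotted line, at 1.26 in treated minus control, and the 4 CFLAR probe sets spread over both sides of 0 there.

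Over the 12 detected member probe sets, treated minus control had a median of 0.23, against -0.02 for all 12782 detected probe sets. The size rule called 1 of the 12 higher and 0 lower, where it called 0.775% of all detected probe sets higher and 0.235% lower. The called probe set, 200798_x_at of MCL1, counts as detected only through the treated and opposite-side pools, where it is high. With values below 5 set to 5, 0 of the members were called. Without overlap of arrays 9 of the 12 were above control and 1 below, where 33.8% of all were above and 41.1% below. Opposite minus control gave 0 calls, where 0.322% of all were called higher and 0.267% lower. Its median over the members was 0.31, against -0.02 for all, and 10 were above and 2 below control without overlap, where 34.1% and 41.3% of all were. Both comparisons use the same control arrays, so their values are not independent of each other. Nor are the 12 probe sets, since CFLAR and XIAP hold 4 each, MCL1 2, and BCL2L1 and BIRC2 1 each. All 4 of XIAP are among those above control in both comparisons.

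Treated minus opposite gave 0 calls as well, where 0.348% of all detected probe sets were called higher and 0.103% lower. The median over the members was 0.0035, the same as over all 12655 probe sets. Of the 12, 5 were above and 3 below the opposite-side pool without overlap, where 36.6% and 34.7% of all were. MCL1 accounted for 2 of the 5, XIAP for 2 and BCL2L1 for 1, and the 3 below were 239629_at and 211316_x_at of CFLAR and 235222_x_at of XIAP.

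The comparisons with the opposite-side pool depend on how the arrays are scaled. The 39 detected spike-in control probe sets read more on treated arrays, by a median of 0.33 over opposite-side arrays and of 0.10 over control arrays. The scaling used the median spike-in value of each array, not the median of differences, so its shifts need not mirror these differences. Once each array was scaled by its spike-in median, the scaling shifted the median of all detected probe sets by -0.23 in treated minus opposite, by 0.24 in opposite minus control and by 0.01 in treated minus control. The members above and below without overlap were then 2 and 8 in treated minus opposite and 11 and 0 in opposite minus control, where 9.89% and 74.6%, and 73% and 12%, of all probe sets were. On that scale treated minus opposite was 0.04 and 0.14 for the MCL1 probe sets, -0.72 for 239629_at and -0.30 for 209939_x_at of CFLAR and 0.09 for BCL2L1, and it turned to -0.09 for 228363_at and -0.20 for 225858_s_at of XIAP. Opposite minus control was then 1.13 for 200798_x_at, past the minimum difference, 0.57 for 200797_s_at, 0.97 for 209939_x_at, 0.51 for BIRC2 and -0.10 for BCL2L1.

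**Figure D3:**
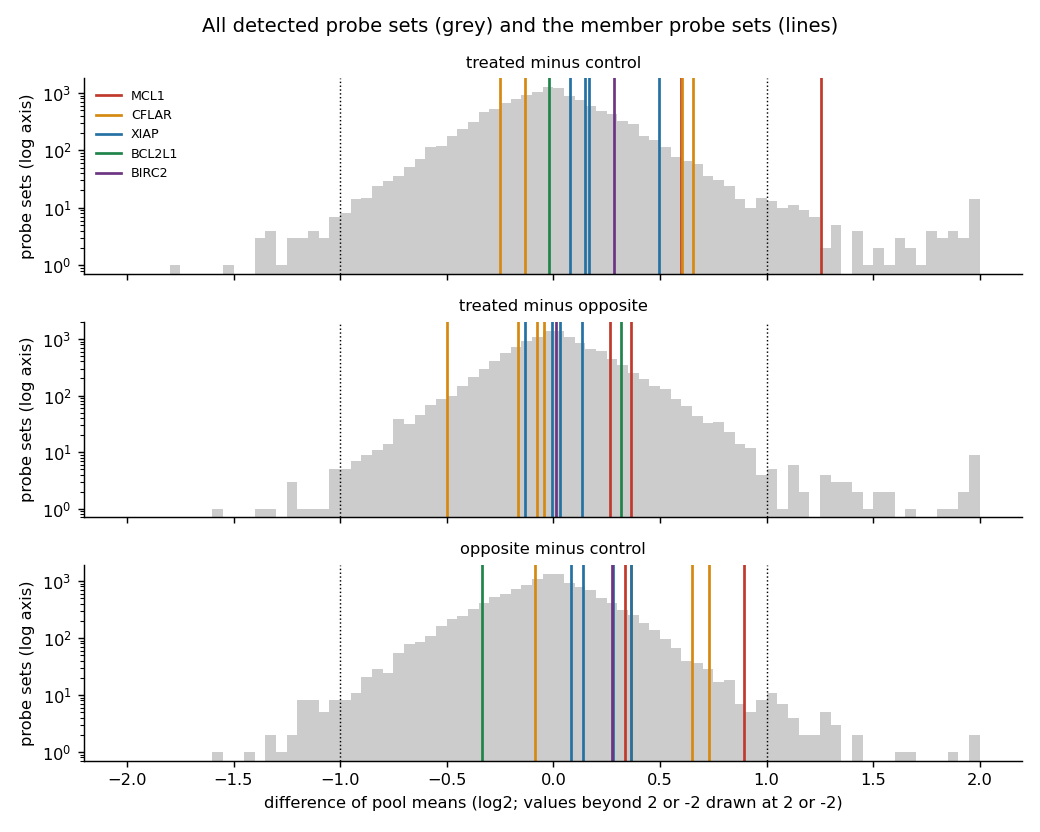
Histograms of the differences of pool means (log2) over all detected probe sets (grey, log axis) with the 12 member probe sets as coloured lines, 1 panel per comparison and dotted lines at the minimum difference of 1. In treated minus control and opposite minus control most member lines lie right of 0, with medians of 0.23 and 0.31, and in treated minus opposite they lie around 0.

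Some other measures were also higher in the tumours of treated animals, as MCL1 and CFLAR were on some probe sets, while others were level or lower. Of 9 fibroblast and matrix markers 4 were detected, and TAGLN (1.66 in treated minus control, 1.04 in opposite minus control) and vimentin, VIM (1.14 and 1.26), were called higher in both pools. The collagen gene COL1A1 differed by 0.67 and 0.50 and the fibronectin gene FN1 by 0.01 and -0.05. The summed level of the 9 (log2) was 8.55 and 8.69 on the control arrays, 9.67 and 9.69 on the treated and 9.42 and 9.45 on the opposite-side arrays, with DCN near the lowest value on all. Of 10 skeletal muscle markers 4 were detected, and the actin ACTA1 (at least 1.21-fold) and the myosin light chain MYL11 (1.60) were called higher in the treated pool. The troponin gene TNNT1 lay below control, by -0.45 in the treated and -0.31 in the opposite-side pool, TNNT3 differed by 0.06 and 0, and MYL1, CKM and MYH1 stayed near the lowest value. Their summed level was 8.01 to 8.06, 8.34 to 8.38 and 8.08 in the same order of pools. Of 6 leukocyte markers LYZ alone was detected, at 11.62 and 11.57 on the control arrays. PTPRC, CD14, CD3E and MS4A1 stayed near the lowest value and ITGAM stayed below 5. The summed level of the 6 was therefore nearly that of LYZ alone, at 11.58 to 11.63, 11.83 to 11.85 and 11.74 to 11.77. That of the colon epithelial markers was 15.05, 15.16 to 15.17 and 15.19. In the treated pool 6 of the 11 detected were above control without overlap and 4 below, against 33.8% and 41.1% of detected probe sets. Those below were TFF3 (-0.64), CEACAM5 (-0.13), LGALS4 (-0.09) and KRT19 (-0.08). In the opposite-side pool 8 were above control and 2 below, against 34.1% and 41.3%. Probe sets at both ends of ACTB and GAPDH are carried on the array as a gauge of intact RNA. At the 5′ end ACTB differed from control by 1.12 in the treated and 1.28 in the opposite-side pool, and at the 3′ end by 0.23 and 0.15. For GAPDH these values were -0.46 and -0.01 at the 5′ end and -0.03 and 0.0005 at the 3′ end. The part of host cells and of RNA quality in the member differences was not tested.

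Other genes of the same pathways were taken from 9 lists of 49 genes, of which 44 had a listed probe set and 23 were detected. The probe set of highest mean stood for each gene. None of the 23 was called in any comparison. Over all genes the rule called 0.625% higher and 0.0972% lower in treated minus control, 0.28% and 0.0559% in treated minus opposite and 0.237% and 0.167% in opposite minus control. The median of the 23 in treated minus control was 0.01, against -0.02 for all detected genes.

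Partners of the mitochondrial route showed differences below the minimum of 1. The other anti-apoptotic relatives BCL2A1, BCL2L2 and BCL2L10 were not detected, and BCL2A1 lay at 2.37 to 2.38 on all arrays. Of the pore-forming effectors, BOK differed by 0.21 in treated minus control and BAX, which permeabilises the outer membrane, by 0.09, while BAK1 was not detected. The BOK difference leaned on the first treated array, with 5.87 and 5.58 on the treated arrays against 5.48 and 5.56 on the control arrays. BIK, a BH3-only gene, read 4.97 and 5.22 on the control, 5.32 and 5.47 on the treated and 5.78 and 5.88 on the opposite-side arrays. Its opposite-side pool was thus highest, by 0.74 over control. BID, which links death receptors to mitochondria, differed by 0.05 in treated minus control and by 0.35 in opposite minus control, but its other detected probe set differed by 0.11 and 0.0075. Of the genes of MCL1 turnover 4 of 5 were detected. FBXW7, a ubiquitin ligase subunit that targets MCL1, differed by -0.01 on the probe set of highest mean and by -0.40 on another detected one. HUWE1, also a ubiquitin ligase for MCL1, read 13.76 to 13.78 on its probe set of highest mean, where the highest value of an array was 14.48 to 14.51, and differed by -0.01 on its other detected one. USP9X, a deubiquitinase of MCL1, differed by 0.0050, with 0.19 and -0.31 on its other detected probe sets.

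On the death receptor and IAP side the NF-kB feedback gene TNFAIP3, which encodes the ubiquitin editor A20, differed most. It read 5.27 and 5.25 on the control arrays, 6.25 and 6.22 on the treated arrays and 5.94 and 5.91 on the opposite-side arrays. Treated minus control was 0.98, short of the minimum, which it passed with quantile normalization. NFKBIA, which encodes the NF-kB inhibitor IkB-alpha, differed by -0.20. In the receptor complex list TNFRSF10B, the TRAIL receptor DR5, differed by -0.23 and TNFRSF1A, the TNF receptor, by 0.22, and 6 of 9 measured genes were detected. Of the other IAPs, BIRC7 differed by -0.30 and BIRC5, survivin, by 0.06. The IAP antagonists DIABLO (-0.18) and HTRA2 (-0.31), which are released from mitochondria, were below control on all arrays of the treated pool, as were 41.1% of all detected probe sets. The antagonists XAF1 and SEPTIN4 were not detected.

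**Figure D4:**
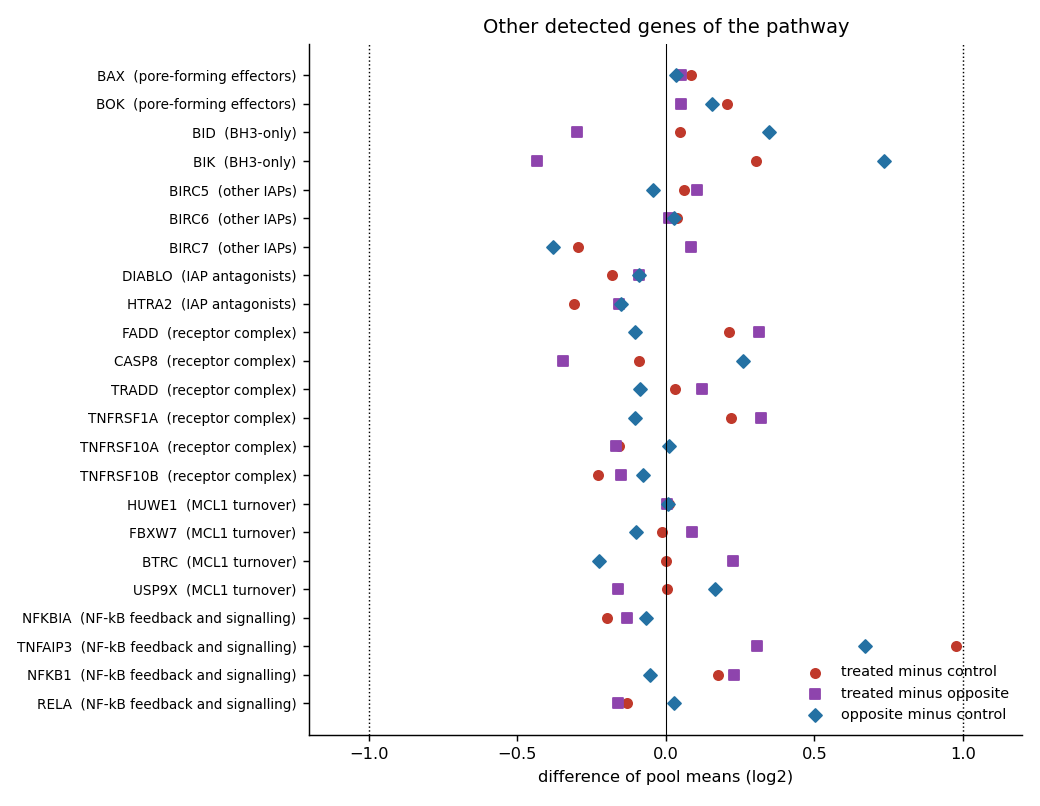
Differences of pool means (log2) in the 3 comparisons for the 23 other detected genes of the pathway, each by its probe set of highest mean, with dotted lines at the minimum difference of 1. TNFAIP3 comes closest to a dotted line, at 0.98 in treated minus control, followed by BIK at 0.74 in opposite minus control.

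The genes most like a member over the 6 arrays, among 7266 other detected genes, were found by the root mean square distance after subtracting each gene's mean. This was done for MCL1 and CFLAR, whose probe sets of highest mean spanned at least 0.5 between pools. Closest to MCL1 were YWHAH, a 14-3-3 protein gene (distance 0.025), SQLE, the squalene epoxidase gene (0.026), and ADAM9, a membrane metalloprotease gene (0.029). Their treated minus control differences were 0.59, 0.56 and 0.59, and 190 genes lay within 0.1 of MCL1. Closest to CFLAR 209939_x_at were ANXA3, an annexin gene (0.047), SLC38A2, an amino acid transporter gene (0.048), and ITGB8, an integrin gene (0.050), and 36 genes lay within 0.1. With only 3 pools behind the 6 arrays, such likeness is a description of level patterns.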

How the data were processed

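The authors deposited log2 values that were made with GCRMA, per the submitters' processing notes (no version given), a method that corrects background, normalizes by quantiles and summarises each probe set. RNA pooled per group was labelled from 1 ug and put on 2 technical arrays, per the labels. The log2 scale was read from the values. Of 54675 probe sets, 41097 named 1 gene, 1801 several and 11777 were not listed in the platform annotation. Members and lists were chosen with earlier results of these data known.

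Pool means were taken over 2 arrays, and the size rule given in the report was applied to all probe sets. It and limma 3.58.1 (R 4.3.3) were run on simulated arrays with added differences above and below the minimum. That run was a check of the code only, since it held no spread between animals and its changed probe sets lay above 5. Limma with Benjamini-Hochberg adjustment compares these pools against array error only, so it served as an alternative call (adjusted p under 0.05 with the same minimum difference). The text gives all member probe sets. Other pathway genes were named when past the rule or with up to 2 of the largest treated minus control differences of a list. Cell type markers were to be named when past the rule or near the lowest value. USP9X, BAK1, BCL2A1, BCL2L2, BCL2L10, XAF1, SEPTIN4, COL1A1, FN1, TNNT1, TNNT3, FLT1, PECAM1, TFF3, CEACAM5, LGALS4, KRT19 and the other probe sets of FBXW7, BID and HUWE1 were added after their values were seen. EPCAM, KRT8, KRT18, LYZ and ITGAM were also named outside these rules. Python 3.11.15, numpy 2.4.6, pandas 2.3.3 and matplotlib 3.10.9 were used. Arrays have no read depth, and their number limits the precision.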

Additional observations from a re-analysis of the deposited data

How the results depend on the processing

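Zero calls among the members in treated minus opposite, and among the pathway genes in the same comparison, were found under every alternative run. The single member call in treated minus control became 0 with a floor of 6, a minimum difference of 1.5, values below 5 set to 5 (chosen after seeing the data), without probe sets of the _s_at, _x_at and _a_at kinds, and with limma over all probe sets and the replicate block. With a minimum difference of 0.5 the members called were 4 in treated minus control and 3 in opposite minus control, and the pathway genes called were 1 and 2. Opposite minus control gave 1 member call with spike-in scaling, and quantile normalization gave 1 pathway gene in treated minus control. Leaving out each array in turn gave 1 member call in treated minus control each time and 0 to 1 in opposite minus control, where the call was 200798_x_at of MCL1 without the second control array.

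Limma with the replicate block gave 1 member call in treated minus control when run on the probe sets that reach 5 (also chosen after seeing the data), as it did without the block, and 0 calls over all probe sets, many of which have no array error. Deviations of same-numbered arrays correlated at -0.0070 to 0.014 over 12939 probe sets, so the numbers do not pair the arrays. Of 36 member differences, 24 moved by more than 1 array SD under spike-in scaling and 4 changed sign, 4 moved under quantile normalization, and 0 moved under median scaling or linear averaging. Signal limits the rest: 24 of 36 member probe sets lay below 5 in all pools.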
